A study of Mus musculus with 6 samples.

Results

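Transcripts of the phagocyte NADPH oxidase and of the enzymes that handle its product were followed in bone marrow-derived macrophages (BMDMs). The 9 genes were fixed by name and looked up in the expression table, namely *Cybb*, *Cyba*, *Ncf1*, *Ncf4* and *Rac2* of the oxidase, the superoxide dismutases *Sod1*, *Sod2* and *Sod3*, and catalase (*Cat*). They and the gene lists below were chosen with earlier results of these data known. Counts of genes that passed among them are therefore descriptions. All 9 were among the 55335 identifiers of the table, and all 9 passed the filter that left 13367 genes for testing. The BMDMs had been grown from wild-type marrow for 7 days in M-CSF at 25 ng/ml, and neutrophils purified from the lesion of adult male C57BL/6 mice 3 days after spinal cord injury (3 dpi) were then added for 24 h. The neutrophils of 3 cultures came from *Cd177* WT mice and those of the other 3 from *Cd177*-/- mice, and Ly6G-negative cells were sorted before RNA extraction. CD177 is a surface glycoprotein of neutrophils. The question was how the genotype of the neutrophils affects the macrophages. No source states whether the replicates came from separate animals or cultures, so the p-values measure the spread between these libraries, which may be technical. There was no culture without neutrophils.

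The phagocyte oxidase moves electrons from NADPH across the membrane onto oxygen and so makes superoxide. Its membrane part pairs the catalytic subunit NOX2 (*Cybb*) with its partner p22-phox (*Cyba*). On activation cytosolic subunits, among them those encoded by *Ncf1* and *Ncf4*, join it together with a Rac GTPase, and the enzyme is best known for killing ingested microbes in neutrophils and macrophages. Superoxide dismutases turn superoxide into hydrogen peroxide in the cytosol (*Sod1*), in mitochondria (*Sod2*) and outside the cell (*Sod3*), and catalase in peroxisomes splits the peroxide into water and oxygen.

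Promoter sequences of 6 of the 9 genes were held in the RefSeq table of the mouse build GRCm38.p6, and 4 are shown because their genes ranged from lower to higher in the libraries labelled KO. Capitals mark matches, on either strand, to a motif like the interferon-stimulated response element, spelled GAAA, any 2 bases, GAAA. Each sequence covers the 250 bases before the annotated transcript start. For *Cybb* and *Sod2* that start lies inside the gene interval given below, so it is not the outermost annotated start of the gene.
Cybb, chrX:9469325-9469574, minus strand: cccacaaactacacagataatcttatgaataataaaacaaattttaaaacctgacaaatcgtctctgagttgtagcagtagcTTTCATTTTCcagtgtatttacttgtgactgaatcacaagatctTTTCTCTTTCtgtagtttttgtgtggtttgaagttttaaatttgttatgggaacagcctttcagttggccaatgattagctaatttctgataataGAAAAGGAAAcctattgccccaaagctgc
Ncf1, chr5:134229626-134229875, minus strand: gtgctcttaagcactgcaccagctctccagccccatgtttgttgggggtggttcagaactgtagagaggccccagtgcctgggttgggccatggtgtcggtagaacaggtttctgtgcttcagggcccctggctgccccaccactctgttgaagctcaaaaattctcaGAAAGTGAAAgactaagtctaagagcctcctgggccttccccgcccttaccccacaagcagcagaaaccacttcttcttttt
Cyba, chr8:122432941-122433190, minus strand: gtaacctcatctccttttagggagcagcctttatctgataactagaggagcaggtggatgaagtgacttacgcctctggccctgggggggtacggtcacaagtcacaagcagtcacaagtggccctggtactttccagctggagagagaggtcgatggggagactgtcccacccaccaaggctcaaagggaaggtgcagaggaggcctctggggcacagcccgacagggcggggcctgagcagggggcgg
Sod2, chr17:13007589-13007838, plus strand: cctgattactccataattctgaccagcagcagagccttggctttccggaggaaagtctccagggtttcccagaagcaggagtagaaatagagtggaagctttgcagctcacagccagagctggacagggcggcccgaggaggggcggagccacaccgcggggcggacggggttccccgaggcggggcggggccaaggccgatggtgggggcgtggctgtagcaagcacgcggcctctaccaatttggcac
The *Cybb* promoter held 3 matches, which began 168, 124 and 29 bases before the start, and that of *Ncf1* held 1, which began 82 bases before it. Of the 32851 promoter windows of 300 bases in the table, 3.4% held at least 1 match, 74 (0.23%) held 2 or more and 5 (0.015%) held 3 or more. The 5 include that of *Cybb*, and matches per window were counted for this motif only. Matches to an NF-kB-like motif (GGGA, any 4 bases, CC, on either strand in 20.7% of all windows) were found for *Cat*, *Ncf1*, *Cyba* and *Cybb*. Matches to the PU.1-like GAGGAA (28.3%) were found for *Cat*, *Sod2* and *Cybb*, and to a motif like the antioxidant response element (TGAC, any 3 bases, GC, 12.4%) for *Sod1*. No match to one motif overlapped a match to another. A match is a run of letters and was not tested as a binding site.

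Some facts of the whole series touch the values that follow. *Cd177* had between 0.309 and 0.544 FPKM under the WT label and between 1.79 and 2.28 FPKM under the KO label, which ran against the labels. The macrophages themselves were wild type and the neutrophils were to be sorted away, and which cells the *Cd177* transcripts came from was not tested, so directions are given between libraries as labelled. All 12 macrophage markers were detected and tested. With limma 3 were higher (*Mrc1*, *Mertk* and *Adgre1*) and 2 lower (*Cd14* and *Fcgr1*) in KO, against 27.1% and 10.5% of all tested genes. *Csf1r* and *Lyz2* were among the 7 that did not pass. *Cd14*, a co-receptor for lipopolysaccharide, fell from 1009.5 ± 150.1 to 99.4 ± 8.39 FPKM and *Fcgr1*, an Fc receptor, from 121 ± 2.67 to 33.8 ± 0.714 FPKM, while *Mrc1*, the mannose receptor, rose from 28.0 ± 1.6 to 221 ± 6.46 FPKM (SD, n = 3 each). Their part in the results was not tested. Of 20 neutrophil markers 15 were tested, and under the KO label 12 were higher and 2 lower, against 27.1% and 10.5% of all tested genes, with a summed level of 207 to 268 FPKM in WT and 565 to 581 FPKM in KO. Of the 12, *Cxcr2*, *Wfdc21* and *Cd177* had a WT mean under 0.5 FPKM and passed the filter through their level in KO. The gene of the sort antigen, *Ly6g*, stood at 0 in each WT library and at 0.403 to 0.660 FPKM in the KO libraries. Neutrophils transcribe the oxidase genes as well, and the part of neutrophil RNA in the results was not tested. In bulk libraries, fewer cells of a type and less RNA per cell cannot be told apart. Of 10 B-lineage markers 7 stayed under the filter, and the 3 tested were higher in KO, against 27.1% of all tested genes. Of these 3, *Ighm* had a WT mean of 0.247 FPKM and passed the filter through its level in KO. The sums of the list were 1.41 to 2.51 FPKM in WT and 14.9 to 17.1 FPKM in KO, while *Cd79a* did not exceed 0.0519 FPKM in any library. Of the T and NK cell, dendritic cell and spinal cord markers, 1 of 8, 0 of 6 and 3 of 10 reached the filter. Among those tested, *Cd4* and *Tubb3* were higher in KO, against 27.1% of all tested genes. The markers *Vpreb3*, *Igll1*, *Cd3d*, *Flt3*, *Aqp4*, *Mog* and *Snap25* were listed at 0 in every library. The neutrophil granule genes *Elane*, *Mpo*, *Prtn3* and *Ctsg* stayed under the filter. By contrast, *Ngp*, *Ltf*, *Camp* and *Lcn2* were among the 12 neutrophil markers that were higher, and *Mmp8* and *Mcemp1* were the 2 that were lower. Replicate 3 of both groups deviated from its group in a shared way (correlation of deviations 0.26), and in both groups it had the lowest *Cybb* and the highest *Cyba* and *Sod1*.

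Across all tested genes, 37.6% differed between groups at an adjusted p-value under 0.05 (limma on log2 of FPKM + 0.5, Benjamini-Hochberg adjustment), 27.1% with a higher and 10.5% with a lower level under the KO label. Of the 9 genes, 5 passed, with *Sod3*, *Sod2* and *Cybb* lower and *Rac2* and *Ncf1* higher, while *Cyba*, *Ncf4*, *Sod1* and *Cat* did not pass. The median log2 fold change of the 9 genes was -0.13, and that of all tested genes was 0.19. For 6 of the 9 genes the groups were separate, lower in KO for *Sod3*, *Sod2* and *Cybb* and higher for *Rac2*, *Ncf1* and *Cat*, against 51.9% of all tested genes (14.4% with KO lower and 37.5% with KO higher). *Sod3*, *Sod2* and *Cybb* lay among the lowest 0.561%, 1.51% and 4.47% of log2 fold changes and *Rac2* among the highest 5.33%.

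**Figure D1:**
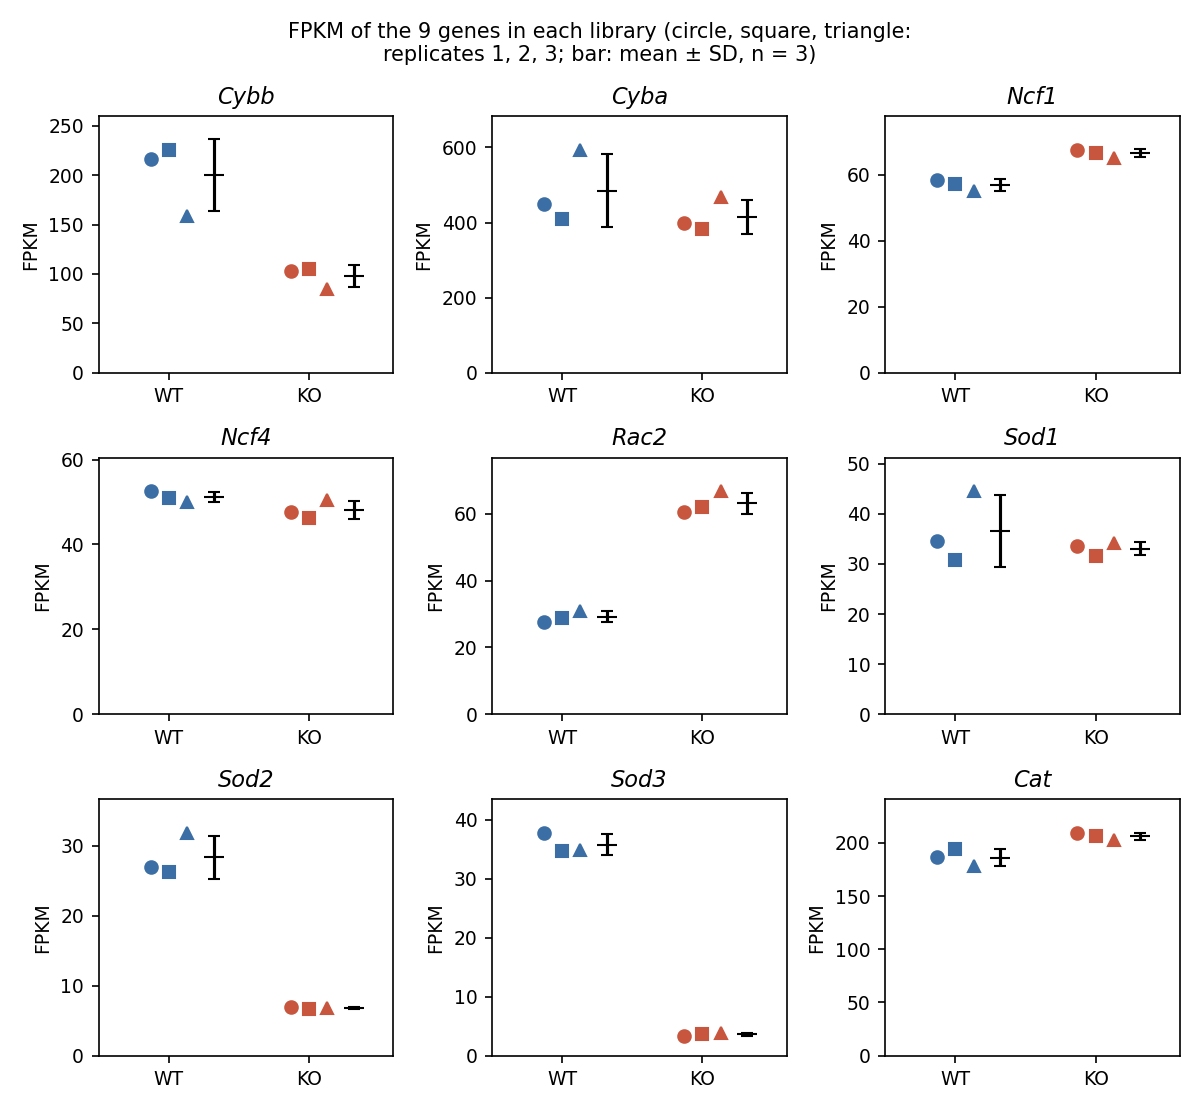
FPKM (vertical axes, each from 0) of the 9 genes in the 3 libraries labelled WT (blue) and the 3 labelled KO (red), with the mean and SD beside them in black. *Sod3* lay between 34.6 and 37.8 FPKM in WT and between 3.4 and 3.76 FPKM in KO, and *Rac2* between 27.7 and 31.0 FPKM in WT and between 60.6 and 66.7 FPKM in KO.

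*Cybb* (ENSMUSG00000015340, chromosome X from 9435252 to 9487771 in GENCODE M21, GRCm38), the gene of the catalytic subunit, was measured at 216, 226 and 159 FPKM under the WT label and at 103, 105 and 84.9 FPKM under the KO label. Every library labelled KO was below every library labelled WT. The mean was 200.1 ± 36.2 FPKM in WT and 97.6 ± 11 FPKM in KO (SD, n = 3 each), 2.05-fold lower. The log2 fold change was -1.02 (SE 0.16, limma adjusted p = 0.00295) and was -1.08 without both replicate 3 libraries.
*Cyba* (ENSMUSG00000006519, chromosome 8 from 122424776 to 122432930) encodes the partner that keeps NOX2 stable in the membrane. It had 450.1, 409.9 and 594 FPKM in WT and 399, 382 and 467 FPKM in KO, the highest level of the 9 genes in either group. The groups overlapped, and the log2 fold change of -0.21 did not pass (95% interval -0.58 to 0.17, limma adjusted p = 0.342). A gene on the other strand that shares exon sequence with *Cyba*, *Gm20388*, was listed at 0 in all libraries.

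Of the cytosolic subunits, *Ncf1* (ENSMUSG00000015950, chromosome 5 from 134220053 to 134229625) encodes the organiser p47-phox. It had 58.5, 57.3 and 55.0 FPKM in WT and 67.6, 66.8 and 65.1 FPKM in KO, so that every KO library was above every WT library by a small margin. Its log2 fold change was 0.22 (SE 0.07, limma adjusted p = 0.0475), close to the median of all genes, and its call held in 7 of 17 alternatives. With median-of-ratios scaling between libraries it was -0.01 and the call was lost, as it was without any 1 library other than WT replicate 3 (limma adjusted p between 0.0869 and 0.164). *Gtf2ird2*, which shares exon sequence with *Ncf1* on the other strand, had 1.25 to 2.14 FPKM.
*Ncf4* (ENSMUSG00000071715, chromosome 15 from 78244801 to 78262580) encodes p40-phox, which binds a phagosomal lipid. It had 52.6, 51.0 and 50.1 FPKM in WT and 47.8, 46.1 and 50.4 FPKM in KO. One KO library lay inside the WT range, and the log2 fold change was -0.09 (95% interval -0.27 to 0.09, limma adjusted p = 0.381). With median-of-ratios scaling it was -0.32 and passed (limma adjusted p = 0.0242).
*Rac2* (ENSMUSG00000033220, chromosome 15 from 78559167 to 78572783), the Rac GTPase of blood cells, moved the other way from *Cybb*. It had 27.7, 28.9 and 31.0 FPKM in WT and 60.6, 61.9 and 66.7 FPKM in KO. The groups lay far apart, with means of 29.2 ± 1.70 and 63.1 ± 3.23 FPKM (SD, n = 3 each), a 2.16-fold higher level in KO. On the log2 scale the difference was 1.10 (SE 0.08, limma adjusted p = 0.00014), and 0.87 with median-of-ratios scaling.

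**Figure D2:**
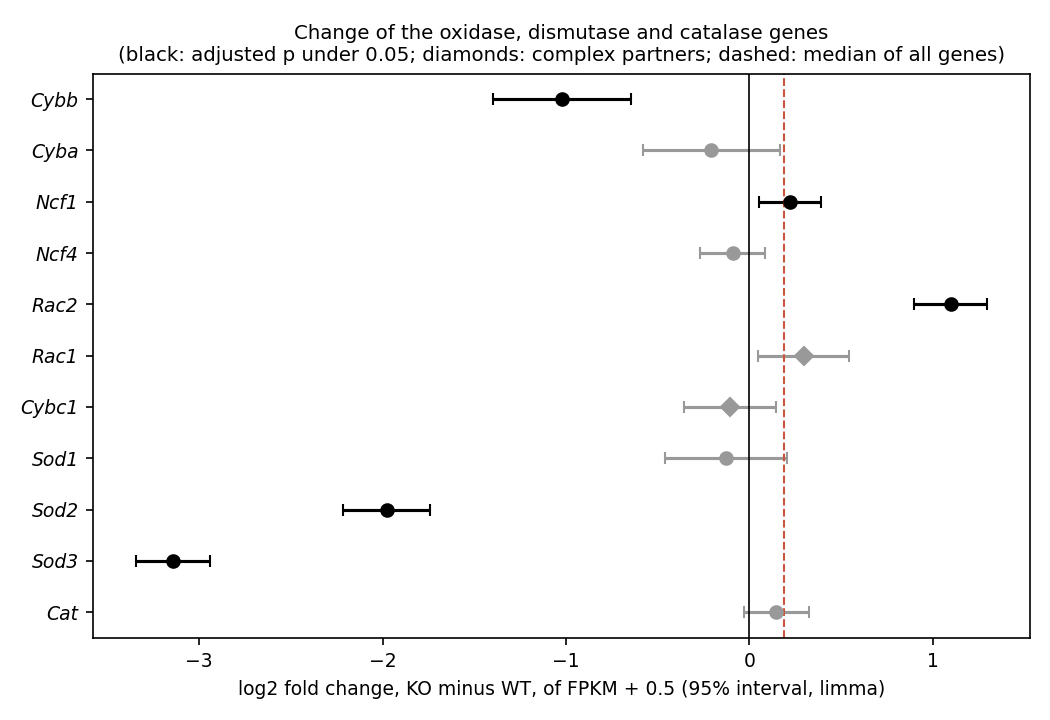
Log2 fold change of FPKM + 0.5, KO minus WT (horizontal axis), with 95% intervals from limma for the 9 genes (circles) and the complex partners *Rac1* and *Cybc1* (diamonds). Black symbols passed an adjusted p-value of 0.05, and the dashed line is the median of all tested genes at 0.19, from which *Sod3*, *Sod2* and *Cybb* lay 3.33, 2.17 and 1.21 below and *Rac2* 0.91 above.

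The remaining genes of the complex were drawn from a list of 6 partners. With limma none of them passed in either direction, while 27.1% of all tested genes were higher and 10.5% lower in KO. Of the partners 1, *Rac1*, had an unadjusted limma p-value under 0.05. The median log2 fold change of the list was 0.06. *Cybc1*, a chaperone needed for NOX2 protein, had 17.4 to 20.4 FPKM in WT and 16.1 to 18.9 FPKM in KO (limma adjusted p = 0.474). *Rac1*, the widely expressed relative of *Rac2*, had 80.0, 81.6 and 97.0 FPKM in WT and 104.7, 99.3 and 113 FPKM in KO (log2 fold change 0.30, limma adjusted p = 0.0632). When WT replicate 3 was left out its adjusted p-value was under 0.05, with 3 of the 6 partners higher. The other NADPH oxidases and their partners stayed under the filter in all 9 cases. *Nox3*, *Noxa1* and *Duoxa2* were listed at 0 in every library, and *Nox4* had 0.155 to 0.234 FPKM. *Noxo1*, which encodes an organiser subunit of NOX1, had 0.198, 0.132 and 0.0921 FPKM in WT and 0.306, 0.579 and 0.474 FPKM in KO. The groups of *Noxo1* did not overlap, as held for 37.5% of all tested genes with KO higher. In the fit without a filter on low values it was the 1 gene of this list that passed (log2 fold change 0.57, limma adjusted p = 0.0439). That fit called 3180 of 28101 genes higher, and the *Noxo1* values lay near or under the pseudocount of 0.5 FPKM.

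The balance within a library does not depend on scaling between libraries, so 5 ratios were compared with an exact permutation test, which cannot give a p-value below 0.1 for 3 against 3. The ratio of *Rac2* to *Rac1* was 0.346, 0.355 and 0.320 in WT and 0.579, 0.624 and 0.589 in KO, 1.76-fold higher without overlap (two-sided exact permutation p = 0.1, 0.167 adjusted over the 5 ratios). *Rac1* remained the more abundant of the pair in every library. The ratio of *Ncf1* to *Ncf4* was 1.10 to 1.12 in WT and 1.29 to 1.45 in KO, also without overlap (two-sided exact permutation p = 0.1). The ratio of *Cybb* to *Cyba* was 0.480, 0.550 and 0.267 in WT and 0.258, 0.274 and 0.182 in KO. Its groups overlapped through WT replicate 3 (two-sided exact permutation p = 0.2), and the log2 difference was -0.82, or -1.13 without that library.

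**Figure D3:**
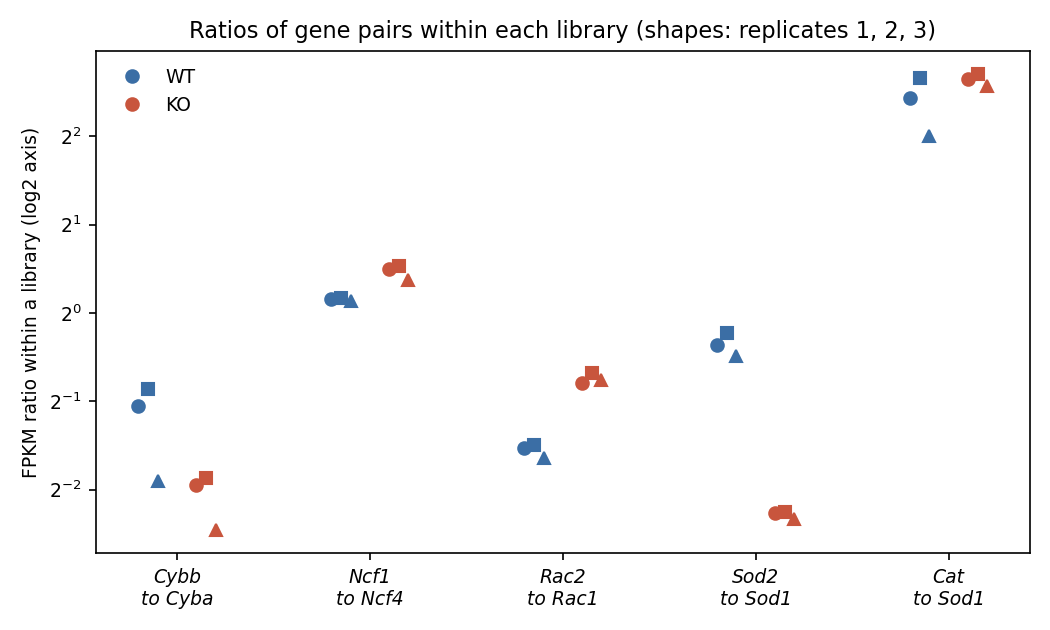
Ratio of the FPKM of gene pairs within each library (vertical log2 axis), with WT in blue, KO in red and replicates 1, 2 and 3 as circles, squares and triangles. *Sod2* to *Sod1* fell from between 0.716 and 0.855 in WT to between 0.199 and 0.210 in KO, while *Cat* to *Sod1* and *Cybb* to *Cyba* overlapped between the groups.

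Of the dismutases, *Sod3* (ENSMUSG00000072941, chromosome 5 from 52363791 to 52371418), the secreted copper and zinc enzyme, changed most among the 9 genes. Its level was 37.8, 34.6 and 34.8 FPKM in WT and 3.4, 3.64 and 3.76 FPKM in KO. The means of 35.7 ± 1.80 and 3.60 ± 0.185 FPKM (SD, n = 3 each) differed 9.94-fold, with a log2 fold change of -3.14 (SE 0.08, limma adjusted p = 2.08e-06).
*Sod2* (ENSMUSG00000006818, chromosome 17 from 13006846 to 13040063), the manganese enzyme of mitochondria, had 26.9, 26.3 and 31.9 FPKM in WT and 6.98, 6.63 and 6.79 FPKM in KO. The KO libraries were lower by more than the spread, with means of 28.3 ± 3.06 and 6.80 ± 0.175 FPKM (SD, n = 3 each), a 4.17-fold difference. The log2 fold change was -1.98 (SE 0.10, limma adjusted p = 2.14e-05).
*Sod1* (ENSMUSG00000022982, chromosome 16 from 90220754 to 90226329), the copper and zinc enzyme of the cytosol, did not share this difference in level. It had 34.5, 30.7 and 44.5 FPKM in WT and 33.5, 31.6 and 34.1 FPKM in KO, with all KO libraries inside the WT range. Its log2 fold change was -0.13 (95% interval -0.46 to 0.21, limma adjusted p = 0.51), and 0.02 without WT replicate 3. *Scaf4*, which shares exon sequence with *Sod1* on the other strand, had 4.99 to 8.69 FPKM, and the sources used here do not say whether strand was used.

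The mixture of dismutase transcripts differed accordingly. The summed level of the 3 genes was 99.2, 91.7 and 111 FPKM in WT and 43.9, 41.8 and 44.7 FPKM in KO. *Sod1* made up 33.5% to 40% of this sum in WT and 75.5% to 76.4% in KO, *Sod2* 27.1% to 28.7% and 15.2% to 15.9%, and *Sod3* 31.3% to 38.1% and 7.74% to 8.70%. The ratio of *Sod2* to *Sod1* was 3.80-fold lower in KO without overlap (two-sided exact permutation p = 0.1, the smallest the design allows).

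**Figure D4:**
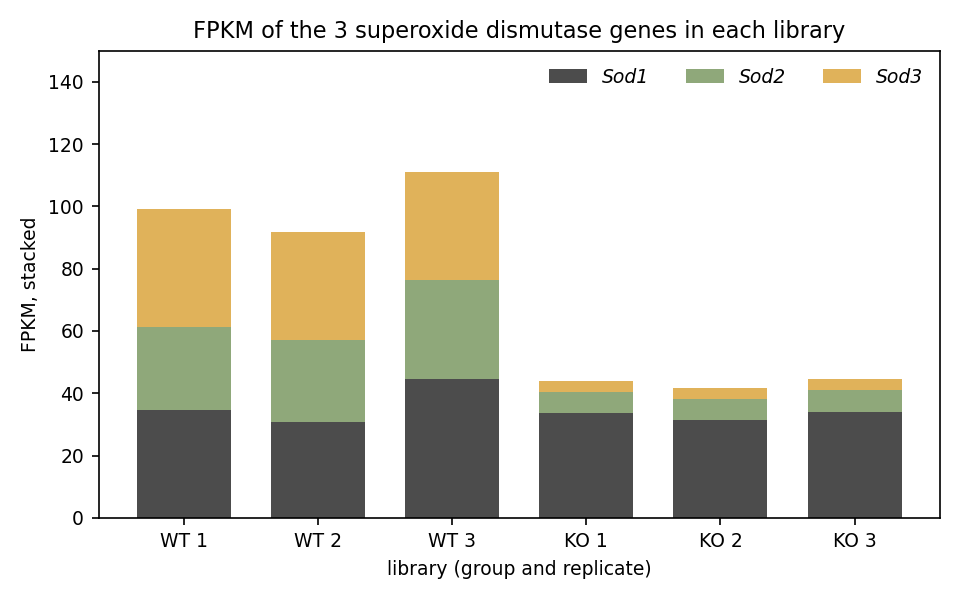
Stacked FPKM (vertical axis, from 0) of *Sod1*, *Sod2* and *Sod3* in each library. The *Sod1* segment lay between 30.7 and 44.5 FPKM in all 6 libraries, and the *Sod2* and *Sod3* segments were smaller in the 3 libraries labelled KO.

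*Cat* (ENSMUSG00000027187, chromosome 2 from 103453849 to 103485160) had 187, 194 and 178 FPKM in WT and 209.7, 206 and 202 FPKM in KO. The groups did not overlap, but the difference was small and did not pass (log2 fold change 0.15, 95% interval -0.03 to 0.32, limma adjusted p = 0.17), and with median-of-ratios scaling it was -0.08. The ratio of *Cat* to *Sod1* was 4.0 to 6.32 in WT and 5.93 to 6.53 in KO (two-sided exact permutation p = 0.3).

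Per length, the order of the levels in the libraries labelled WT was *Cyba*, *Cybb*, *Cat*, *Ncf1*, *Ncf4*, *Sod1*, *Sod3*, *Rac2* and *Sod2*. The ranges of *Cybb* and *Cat*, of *Sod1* and *Sod3*, and of *Rac2* and *Sod2* overlapped between neighbours there. In the libraries labelled KO the order was *Cyba*, *Cat*, *Cybb*, *Ncf1*, *Rac2*, *Ncf4*, *Sod1*, *Sod2* and *Sod3*, and only the ranges of the neighbours *Ncf1* and *Rac2* overlapped. *Rac2* thus stood at position 8 in WT and 5 in KO, and *Sod3* at 7 and 9.

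The genes that supply, activate or follow these enzymes were taken from 4 further lists. Of 17 tested genes of signals that activate NOX2, 7 were higher and 2 lower in KO (27.1% and 10.5% of all tested genes), the median of their log2 fold changes being 0.35, but with median-of-ratios scaling only 3 were higher. *Dock2*, an activator of Rac in blood cells, rose from 5.82 ± 1.41 to 23.2 ± 3.09 FPKM (SD, n = 3 each), or by 1.92 on the log2 scale (limma adjusted p = 0.000437). *Pik3cg*, the catalytic subunit of a phosphoinositide kinase downstream of chemoattractant receptors, rose from 4.81 ± 0.723 to 12.7 ± 0.656 FPKM (limma adjusted p = 0.000303). *Pla2g4a*, the cytosolic phospholipase that releases arachidonate, fell from 10.3 ± 0.359 to 4.53 ± 0.294 FPKM (limma adjusted p = 0.000183). *Hvcn1*, the proton channel that balances the charge moved by the oxidase, had 116, 114 and 91.5 FPKM in WT and 57.8, 59.0 and 56.6 FPKM in KO, a fall of 1.86-fold (limma adjusted p = 0.00114). The calls of these 4 genes held in all 17 alternatives.

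Of 18 genes of peroxide removal, 8 were lower and 2 higher in KO (10.5% and 27.1% of all tested genes), the median of their log2 fold changes being -0.20. The fall was steepest for *Prdx6*, a peroxiredoxin that also acts on lipid peroxides, with 151.5, 150.9 and 191 FPKM in WT and 15.1, 14.2 and 19.2 FPKM in KO (log2 fold change -3.31, limma adjusted p = 1.28e-05). *Prdx5*, another peroxiredoxin, had 301, 274 and 432 FPKM in WT and 64.3, 78.1 and 91.5 FPKM in KO (log2 fold change -2.08, limma adjusted p = 0.00039). The genes that rose were *Txnrd2*, the mitochondrial thioredoxin reductase, and *Gpx3*, a secreted glutathione peroxidase, by 0.82 and 0.52 on the log2 scale (limma adjusted p-values 0.00757 and 0.0035). The call of *Gpx3* was lost with median-of-ratios scaling. Without WT replicate 3, 6 genes of this list were higher.

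Of 9 tested genes listed for metal supply to the dismutases, 3 were lower and 1 was higher (10.5% and 27.1% of all tested genes). The list also held *Cox17*, *Slc25a39* and *Mtch2*, whose part in that supply was not tested and which did not pass. *Slc31a2*, a copper transporter of endolysosomes, fell from 52.2 ± 2.83 to 21.3 ± 0.493 FPKM (SD, n = 3 each, log2 fold change -1.27, limma adjusted p = 5.2e-05). *Slc39a14*, a carrier of manganese and zinc, fell from 6.74 ± 0.935 to 4.33 ± 0.312 FPKM (limma adjusted p = 0.0102). *Ccs*, the chaperone that loads copper into the *Sod1* protein, was the gene that rose, from 7.83 ± 0.393 to 10.1 ± 0.852 FPKM (log2 fold change 0.35, limma adjusted p = 0.0283). Its call was lost without WT replicate 1 or 2 or KO replicate 2 or 3 and with 3 of the scalings between libraries.
Of 11 tested genes that supply NADPH, 3 were higher and 2 lower, shares near those of all tested genes (27.1% and 10.5%). *Idh2*, the mitochondrial isocitrate dehydrogenase, rose from 12.6 ± 1.24 to 23.4 ± 0.366 FPKM (log2 fold change 0.87, limma adjusted p = 0.000618), and *Nadk*, a NAD kinase, had a log2 fold change of 0.63 (limma adjusted p = 0.0334). *Pgd*, of the pentose phosphate pathway, fell from 137.8 ± 7.56 to 83.5 ± 0.414 FPKM (limma adjusted p = 0.000554). *H6pd*, the related enzyme of the endoplasmic reticulum, had 43.8, 46.9 and 23.5 FPKM in WT and 20.6, 21.1 and 15.1 FPKM in KO (limma adjusted p = 0.0351). The call of *H6pd* was lost without any 1 library other than WT replicate 3, as TPM and without a filter on low values, and that of *Nadk* without any 1 KO library and in 4 other alternatives. *Nnt* was left out because 2 identifiers carry its name.

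**Figure D5:**
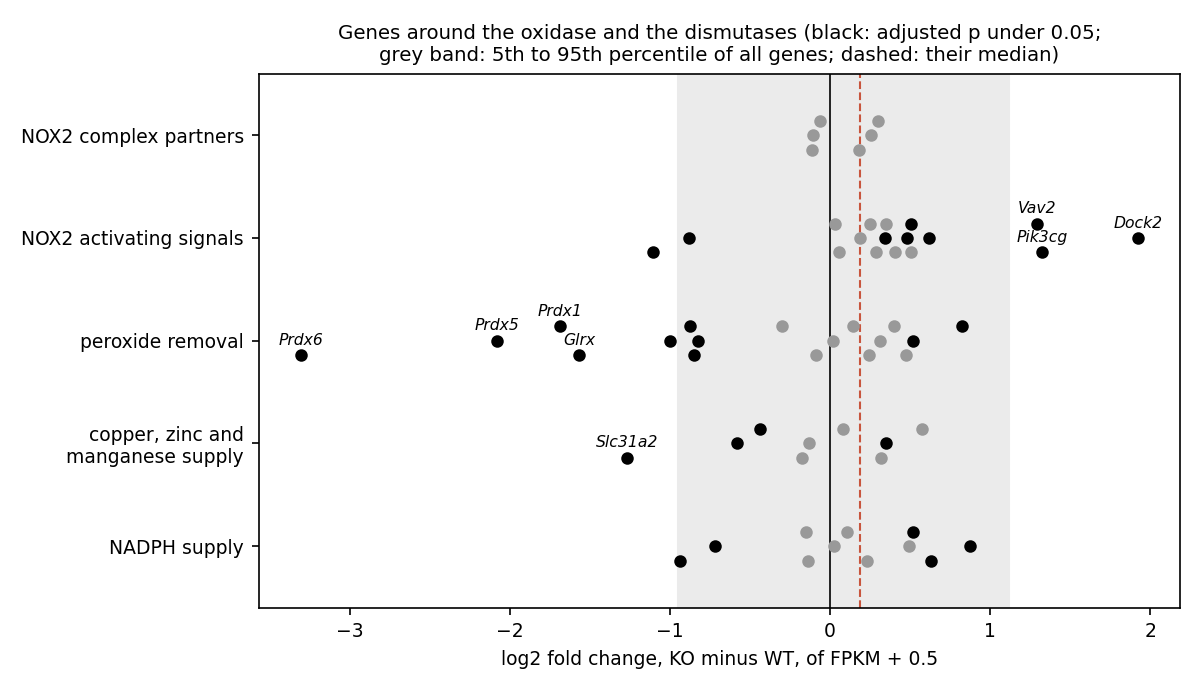
Log2 fold change of FPKM + 0.5, KO minus WT (horizontal axis), of each tested gene of 5 lists (rows). Black points passed an adjusted p-value of 0.05, the grey band spans the 5th to the 95th percentile of all tested genes (-0.95 to 1.12), and 5 peroxide removal genes, *Prdx6*, *Prdx5*, *Prdx1*, *Glrx* and *Gsr*, lie to its left.

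The genes whose log2 levels followed *Cybb* most closely over the 6 libraries were *Rnf213*, *Chst11* and *Carmil1*, with Pearson correlations of 0.9996, 0.9992 and 0.9989. Those closest to *Sod2* were *Ly6i*, *Ccl6* and *Glrx*, with 0.9996, 0.9996 and 0.9994. *Rnf213* had 83.0, 91.8 and 38.3 FPKM in WT and 10.7, 11.8 and 6.25 FPKM in KO, and so shared with *Cybb* the lowest level in replicate 3 of either group. *Ccl6* had 319, 316 and 357 FPKM in WT and 124, 126 and 126 FPKM in KO. These correlations describe 6 libraries in 2 groups and rest largely on the difference between the groups.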

How the data were processed

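RNA of 6 BMDM libraries was sequenced, 3 per group. Values were deposited as FPKM, 1 per gene and library, which the authors computed. The submitters' processing notes name fastp 0.17.1, HISAT2 2.1.0, DESeq2 1.18.1 and R 3.4.3, while quantifier, annotation and build are not given in the sources used here. Of the identifiers, 99.7% matched GENCODE M21 (GRCm38). Low values imply a depth of 17600000 to 20300000 fragments per library, but only 37.2% to 40.7% of them lay within 0.1 of a whole multiple (20% by chance), so no count test was run. FPKM is relative to each library's total, so abundant genes that change shift all others.

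Values of genes averaging 0.5 FPKM or more were put on a log2(FPKM + 0.5) scale and tested by limma 3.58.1 under R 4.3.3 (eBayes with trend, two-sided, no covariates, all 6 libraries) and Benjamini-Hochberg adjustment. A gene was called at an adjusted p-value under 0.05. Ratios were tested with scipy 1.17.1, and figures drawn with matplotlib 3.10.9. Members and lists were chosen with earlier results of these data known. Named genes were the members, *Rac1*, *Cybc1*, up to 2 rises and 2 falls per list, and the 3 genes most like *Cybb* and *Sod2*. The alternatives were other pseudocounts, filters, scalings, thresholds and variance estimates, the replicate block and leaving out libraries. Values of 1 complex partner and 1 marker are not reported here.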

Additional observations from a re-analysis of the deposited data

How the results depend on the processing

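The falls of *Sod3*, *Sod2* and *Cybb* and the rise of *Rac2* kept their direction and an adjusted p-value under 0.05 (limma) in all 17 alternatives each, with log2 fold changes of -3.36 to -2.998, -2.20 to -1.89, -1.25 to -0.92 and 0.87 to 1.14. *Ncf1* did not: its log2 fold change was -0.0053 with median-of-ratios scaling, 0.14 after scaling to the upper quartile, 0.24 as TPM, 0.23 with quantile normalization and 0.22 with a robust variance, none of which passed, and 0.20 to 0.24 with single libraries left out. The number of members higher was then 1 in each of these, and 1 to 2 with single libraries left out. It was also 1 at an adjusted p-value under 0.01. The study's thresholds (more than 2-fold and p under 0.05 without adjustment), applied to the limma fit, gave 1 as well. With median-of-ratios scaling *Ncf4* passed with -0.32 and *Cat* turned to -0.083. *Sod1* lay between -0.24 and 0.020 with single libraries left out. The median of all tested genes was -0.01 with median-of-ratios scaling, against 0.19 as deposited, so this setting shifts all genes down. The cause of the difference between scalings was not tested.

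Over all genes, 3619 were higher and 1408 lower. With median-of-ratios scaling these were 2057 and 2259, so that 47.7% of called genes were higher, against 72.0%, and 55.7% with quantile normalization. At an adjusted p-value under 0.01 they were 2007 and 922. With the study's thresholds applied to the limma fit, where the study used DESeq2, they were 893 and 592. With genes averaging 5 FPKM or more, which tests fewer genes, 1756 were higher.

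In the lists, median-of-ratios scaling gave 2 complex partners lower, 3 activating genes, 1 peroxide gene, 0 metal supply genes and 1 NADPH supply gene higher, and 4 NADPH supply genes lower. As TPM, 1 partner and 4 peroxide genes were higher and 1 NADPH supply gene lower. Quantile normalization gave 1 partner, 4 activating and 0 metal supply genes higher, and upper-quartile scaling 0 metal supply genes. Without a filter on low values 1 other oxidase gene (*Noxo1*) was higher and 1 NADPH supply gene lower, and with genes averaging 5 FPKM or more 1 peroxide gene was higher. With single libraries left out, the numbers higher were 0 to 3 partners, 4 to 7 activating, 2 to 6 peroxide, 0 to 1 metal supply and 2 to 4 NADPH supply genes, and 1 to 2 NADPH supply genes were lower. Without both replicate 3 libraries, an alternative added after seeing the data, 2 partners, 11 activating, 7 peroxide, 2 metal supply and 5 NADPH supply genes were higher and 1 partner lower.

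The samples share replicate numbers, but same-numbered libraries deviated together with correlations of 0.12, 0.04 and 0.26, and WT replicate 1 correlated best with KO replicate 2. The numbers were therefore not taken to pair the samples in the main fit. With 3 libraries per group such correlations cannot decide the pairing, and a batch shared by same-numbered libraries was not tested. With the replicate block 4253 genes were higher and 1681 lower, with 2 members higher and 3 lower, and 2 partners, 5 peroxide and 3 metal supply genes higher. It changed no member's call. The SE of *Cybb* was 0.068 with the block and 0.158 without it, and that of *Cyba* 0.071 and 0.158. For *Sod3* the SE was 0.084 and 0.085. The limma adjusted p-value of *Cyba* was 0.0686 with the block and 0.342 without it. Whether depth limits the genes under the filter, such as the other NADPH oxidases, was not tested.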
